A study of Mus musculus with 18 samples.

Results

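The Fc receptor genes of mouse macrophages were followed through 18 RNA-seq libraries. The 6 genes were selected by name as receptors for the Fc end of IgG and the signalling chain they share, namely Fcgr1, Fcgr3, Fcgr4, Fcgr2b, Fcer1g and Fcgrt, out of 13598 genes with a value in the series. All 6 were found under their Ensembl numbers, and all 6 were among the 9707 genes that reached 1 FPKM in at least 3 libraries and were tested. They were made from macrophages of the peritoneal cavity of 3 genotypes, TLR4-WT, TLR4-K730R or TLR4-K810R, either left as control or treated with LPS at 100 ng/ml for 6 h, with 3 libraries in each of the 6 groups. LPS, lipopolysaccharide, is the bacterial ligand of TLR4. The mutant mice were CRISPR/Cas9 knock-in animals on the C57BL/6 background in which lysine K730 or K810 of the TIR domain of TLR4, the domain that recruits its adaptors, was exchanged for arginine. According to the study's methods, peritoneal macrophages of every genotype were elicited with thioglycolate, so no group holds the resident cells of an uninjected mouse. The labels do not say which libraries came from separate mice, and p-values measure the spread between these libraries, which may be technical.

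Receptors for the Fc part of IgG let a macrophage bind antibody-coated particles. The activating receptors FcγRI (Fcgr1, high affinity), FcγRIII (Fcgr3, low affinity) and FcγRIV (Fcgr4, intermediate affinity for IgG2a and IgG2b) pair with the common γ chain (Fcer1g), whose ITAM motif engages the kinase Syk and drives phagocytosis and cytokine release. FcγRIIb (Fcgr2b) carries its own ITIM motif, recruits the phosphatase SHIP1 and dampens the activating receptors on the same cell, so the balance of both kinds sets the response to immune complexes. FcRn (Fcgrt) works differently: with β2-microglobulin it binds IgG inside acidic vesicles and returns it to the surface.

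Fcgr2b, Fcgr3, Fcgr4 and Fcer1g lie in a cluster on mouse chromosome 1 (GRCm38), at chr1:170958617-170976547 on the minus strand, chr1:171051174-171064935 on the minus strand, chr1:171018920-171029761 on the plus strand and chr1:171229572-171234365 on the minus strand. Fcgr1 is at chr3:96282909-96293969 and Fcgrt at chr7:45092990-45103851, both on the minus strand. Sequence that bears on the results below is of 2 kinds, an alternative exon and promoters. The first is the cassette exon of Fcgr2b, shown because its use separated libraries within LPS groups. It is a coding exon at chr1:170963325-170963465, minus strand, of 141 bases or 47 codons, and is present in 2 of 7 annotated Fcgr2b transcripts (GENCODE M21). Transcripts that include it encode the b1 form, whose longer cytoplasmic tail is typical of B cells, and transcripts that skip it encode the b2 form typical of macrophages.
Fcgr2b cassette exon: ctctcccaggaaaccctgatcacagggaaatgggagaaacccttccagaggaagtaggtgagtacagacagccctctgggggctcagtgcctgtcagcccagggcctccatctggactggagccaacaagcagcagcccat
The promoters of Fcgr1 and Fcgr4 are shown because these 2 genes had the largest rises with LPS among the 6 in TLR4-WT and TLR4-K730R cells. In TLR4-K810R cells Fcgr2b rose slightly more than Fcgr4. Each run covers 250 bases before to 50 bases after the RefSeq start (GRCm38.p6), which was matched for all 6 genes. Capitals mark a GAS-type match, the letters TTCNNNGAA bound by STAT factors, in Fcgr1 (chr3:96293920-96294219, minus strand), and an ISRE-type match, GAAA, 2 further bases and GAAA, bound by IRF and STAT complexes, in Fcgr4 (chr1:171018676-171018975, plus strand).
Fcgr1 promoter: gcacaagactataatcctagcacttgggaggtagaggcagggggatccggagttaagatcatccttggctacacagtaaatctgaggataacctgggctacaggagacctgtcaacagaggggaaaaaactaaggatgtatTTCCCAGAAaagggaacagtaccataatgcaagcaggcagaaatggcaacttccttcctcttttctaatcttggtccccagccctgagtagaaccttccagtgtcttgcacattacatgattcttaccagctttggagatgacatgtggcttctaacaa
Fcgr4 promoter: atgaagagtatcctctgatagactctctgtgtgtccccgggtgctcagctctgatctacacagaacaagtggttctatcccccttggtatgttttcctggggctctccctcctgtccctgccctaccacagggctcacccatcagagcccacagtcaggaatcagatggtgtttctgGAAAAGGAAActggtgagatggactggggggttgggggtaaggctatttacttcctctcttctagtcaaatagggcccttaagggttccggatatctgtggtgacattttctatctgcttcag
The GAS-type match lies 109 to 101 bases before the Fcgr1 start, and the ISRE-type match 73 to 64 bases before the Fcgr4 start. Searched on both strands, GAS letters occurred in 8.3% and ISRE letters in 3.44% of 32851 promoters of the same length. The PU.1-type letters GAGGAA were found in the windows of Fcgr1, Fcgr3 and Fcgr4 and in 28.3% of all promoters. NF-kB-type letters, GGG and CC 5 bases apart, were in the windows of Fcgr3, Fcgr4, Fcgr2b and Fcer1g and in 50.8% of all promoters. The first exons listed in these libraries for Fcgr3, Fcgr2b and Fcer1g lay upstream of the windows of those genes, for Fcgr2b at chr1:170976437-170976547. Letters in those windows may thus lie outside the promoters used here. The printed GAS-type and ISRE-type matches overlap none of the others, and each match is a description of letters in a window only.

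Values are FPKM, fragments scaled to transcript length and library size, so levels are per length. The deposited rows are transcript events rather than whole genes, and each gene took whichever was larger, the sum over first exons or that over last exons. In all 18 libraries the first-exon sum was the larger for Fcgr1 and the last-exon sum for Fcgr3, Fcgr2b and Fcer1g, while both sums were equal for Fcgr4 and Fcgrt. Since such a sum holds only the events listed, a gene's level can be partial, and so can the order of levels, the shares and the ratios between genes given below. Of the 50-base words in the Fcgr3 transcript examined, 12.8% also occur in Fcgr2b transcripts, with a longest shared stretch of 129 bases, so reads there could be assigned to either gene. No other pair of the 6 shared such a word.

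The cells carried the macrophage markers Adgre1 (148 to 271 FPKM), Csf1r (277 to 538 FPKM), Cd68 (387 to 771 FPKM) and Lyz2 in all 18 libraries, while Itgam had no value in any library and Cd14 had a value in 1. A missing value is thus not a measured zero in these files. Tlr4 was listed in every library, at 9.31 to 14.2 FPKM in controls and 4.18 to 5.72 FPKM after LPS. A lysine codon change does not alter these values, so the genotype labels could not be checked here. Over all tested genes the root mean square log2 distance of a library to its group mates was 0.438 to 0.542. The highest values, 0.542 and 0.532, were those of replicate 3 of TLR4-WT LPS and replicate 3 of TLR4-K730R LPS, whose deviations from their group means correlated at -0.32 across genes, which are not independent. Both were uneven with their mates in single genes: Hdc was 19.5, 20.1 and 11.5 FPKM in TLR4-WT LPS and 9.11, 6.60 and 20.3 FPKM in TLR4-K730R LPS, and Mmp9 was 43.4, 42.6 and 93.7 FPKM and 102, 62.8 and 46.8 FPKM. Fcgr1 and Fcgr4 were uneven in these groups as well, and their differences with libraries left out are given with those genes. As for all libraries, the genotype labels of both could not be checked. Library depth is unknown, since FPKM values come without counts.

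In control cells the order of the 6 mRNA levels was the same in each genotype. Fcer1g was highest, followed by Fcgr3, Fcgr2b, Fcgr1, Fcgr4 and Fcgrt. In TLR4-WT controls the mean level was 642 FPKM for Fcer1g, 288 FPKM for Fcgr3, 167 FPKM for Fcgr2b, 50.1 FPKM for Fcgr1, 22.1 FPKM for Fcgr4 and 12.8 FPKM for Fcgrt. No neighbours in this order overlapped between libraries of the same control group. After LPS, Fcgr3 left second place. Fcer1g, Fcgr2b and Fcgr1 were then the 3 highest by group mean in every genotype, and Fcgr3 and Fcgr4 overlapped in each. In TLR4-K730R cells with LPS, Fcgr1 also overlapped Fcgr2b, Fcgr3 and Fcgr4.

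**Figure D1:**
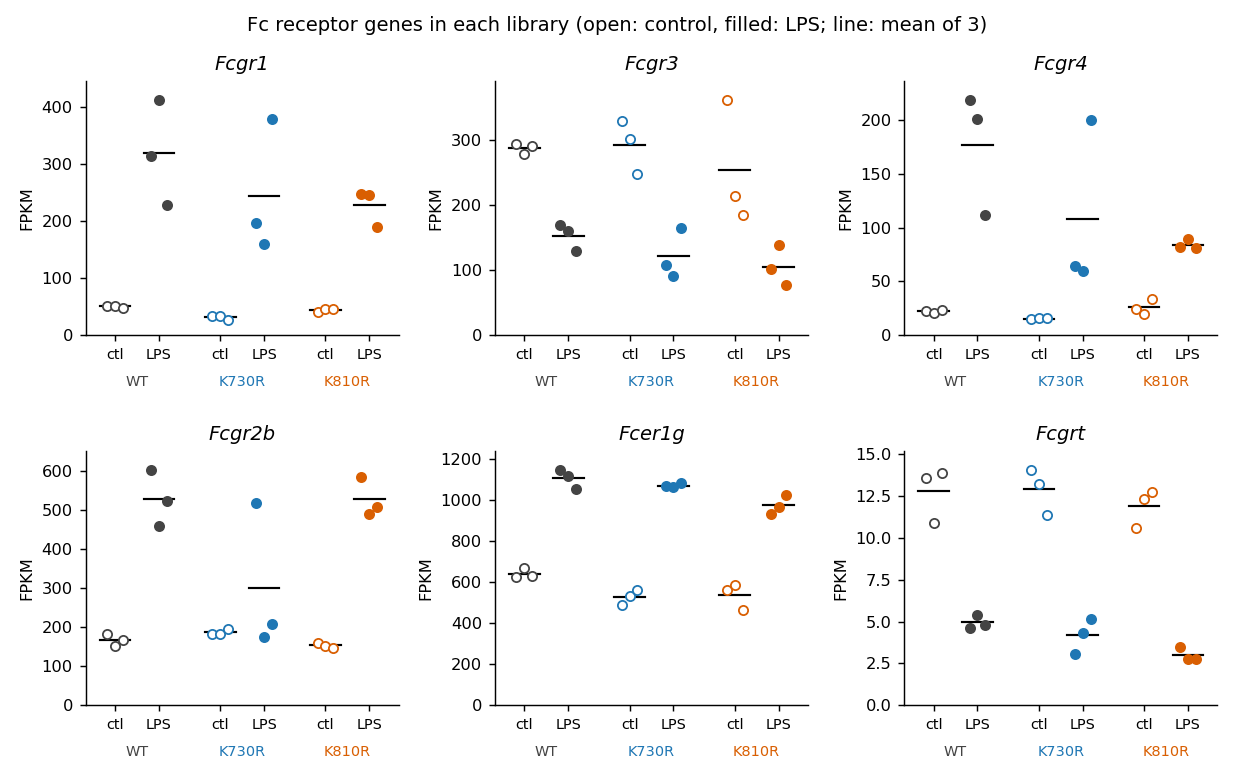
FPKM of the 6 Fc receptor genes in each of 18 libraries, by genotype and treatment (open circles control, filled circles LPS, black lines means of 3 libraries, each vertical axis starting at 0). Fcgr1, Fcgr4 and Fcer1g libraries with LPS lie above all controls of their genotype, Fcgr3 and Fcgrt lie below, and Fcgr2b in TLR4-K730R has 1 high and 2 low LPS libraries.

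The first comparison asked what LPS did to these receptors in each genotype. LPS raised the high-affinity receptor Fcgr1, Fcgr4 and the shared chain Fcer1g and lowered Fcgr3 and Fcgrt in all 3 genotypes, and raised the inhibitory Fcgr2b in TLR4-WT and TLR4-K810R cells. In TLR4-WT, 6 of 6 genes passed limma's test at an adjusted p below 0.01, 4 higher and 2 lower, where 34.3% of all tested genes passed, 10.4% higher and 23.9% lower. In TLR4-K730R it was 5 of 6, 3 higher and 2 lower, beside 35.8% of all genes, 9.32% higher and 26.5% lower. In TLR4-K810R it was 6 of 6, 4 higher and 2 lower, beside 28.8% of all genes, 9.08% higher and 19.7% lower. The control and LPS libraries did not overlap for 6, 5 and 6 of the 6 genes in the same order of genotypes, and for 55%, 58.8% and 52.5% of all genes. The median log2 difference of the 6 genes was 1.22, 0.77 and 1.28, against -0.28, -0.36 and -0.26 over all tested genes.

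Median-of-ratios scaling brought the median of all genes to -0.04, -0.08 and -0.07 and turned the split of all calls in TLR4-WT from 1012 higher and 2316 lower to 1426 higher and 1442 lower. For TLR4-K730R cells 905 higher and 2568 lower became 1376 and 1459. For TLR4-K810R cells 881 higher and 1916 lower became 1129 and 1228. No difference of the 6 genes between LPS and control changed sign with this scaling. The falls of Fcgr3 were the calls it touched, as given with that gene. In bulk RNA, fewer cells of a type and less RNA per cell cannot be told apart.

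**Figure D2:**
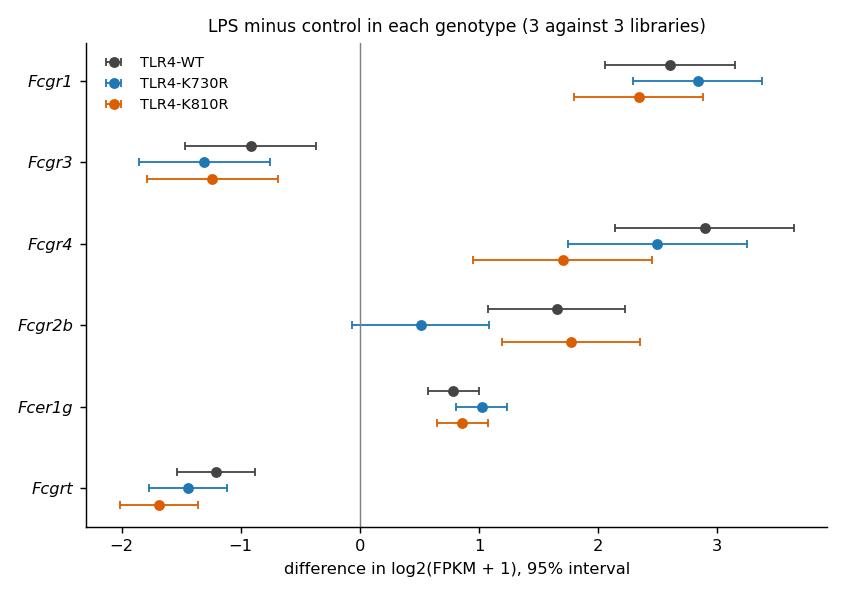
Difference in log2(FPKM + 1) between LPS and control libraries for the 6 genes, one point per genotype with its 95% interval from limma (3 libraries against 3). All points for Fcgr1, Fcgr4 and Fcer1g lie above 0, all points for Fcgr3 and Fcgrt lie below, and the TLR4-K730R interval for Fcgr2b, -0.07 to 1.09, includes 0.

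Fcgr1 encodes FcγRI, which binds monomeric IgG. In TLR4-WT cells its level was 51.2, 51.7 and 47.4 FPKM in control replicates 1 to 3 and 314, 412 and 228 FPKM with LPS. In TLR4-K730R it was 33.3, 33.6 and 26.7 FPKM in controls and 196, 159.5 and 378 FPKM with LPS. The TLR4-K810R libraries had 39.9, 45.6 and 45.8 FPKM in controls and 247, 246 and 189 FPKM with LPS. Every LPS library exceeded every control library of any genotype, by the ratio of means 6.35-fold, 7.83-fold and 5.18-fold. The log2 differences were 2.60, 2.84 and 2.34 (SE 0.26 each), with adjusted p of 5.24e-07, 1.92e-07 and 2.07e-06 by limma.

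Fcgr4, the receptor for IgG2a and IgG2b, was low in control cells. TLR4-WT libraries gave 22.4, 20.7 and 23.2 FPKM without LPS and 219, 201 and 112 FPKM with it. TLR4-K730R libraries gave 15.1, 15.7 and 15.5 FPKM and, with LPS, 64.0, 60.0 and 200.4 FPKM. TLR4-K810R libraries gave 24.2, 19.4 and 33.7 FPKM and, with LPS, 81.8, 89.1 and 81.4 FPKM. The LPS libraries were above all controls in each genotype, but they were uneven in TLR4-K730R, where replicate 3 was near the higher TLR4-WT values and the other two were not, and in TLR4-WT, where replicate 3 was the lowest. The rise in means was 8.04-fold, 7.01-fold and 3.26-fold, and the log2 difference was 2.89, 2.50 and 1.70 (SE 0.35) with adjusted p of 5.65e-06, 2.52e-05 and 0.00108 by limma. Without replicate 3 of its LPS group the difference was 3.19 in TLR4-WT and 1.94 in TLR4-K730R, both called. Fcgr4 also has a cassette exon of 21 bases, shown here because the form without it was listed in all 9 LPS but only 5 of 9 control libraries, at chr1:171019528-171019548, plus strand.
Fcgr4 cassette exon: ctttctctggcattcaagctg
Of the Fcgr4 FPKM at this exon, 9.92% to 16.3% skipped it in the 9 LPS libraries. The control libraries ranged from 0 to 19.2%, where the skipped form reached at most 4.06 FPKM.

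Fcgr3 went the other way. This activating receptor is the one that mouse macrophages use for many IgG1 complexes, and it was the highest of the 4 Fcγ receptors in controls. TLR4-WT had 294, 279 and 291 FPKM in controls and 170.1, 159.9 and 129 FPKM with LPS. TLR4-K730R had 329.8, 302.5 and 248 FPKM and, with LPS, 108, 91.3 and 165 FPKM. TLR4-K810R had 362, 215 and 185 FPKM and, with LPS, 101, 138 and 76.9 FPKM. Control and LPS libraries did not overlap in any genotype, and the means were 1.88-fold, 2.42-fold and 2.41-fold lower with LPS. The log2 difference was -0.92, -1.30 and -1.24 (SE 0.26) with adjusted p of 0.00841, 0.000607 and 0.00114 by limma. The TLR4-WT call did not hold under median-of-ratios scaling (-0.62, adjusted p = 0.0867) or with any 1 of its 6 libraries left out (adjusted p 0.014 to 0.035), and the TLR4-K730R call did not hold under that scaling (-0.95, adjusted p = 0.0121). With the replicate block the TLR4-WT adjusted p was 0.0103.

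Fcgr2b, the inhibitory receptor, rose with LPS in TLR4-WT from 182, 151 and 169 FPKM to 603, 459.5 and 525 FPKM. In TLR4-K810R the controls had 161, 152 and 148 FPKM and the LPS libraries 586, 491 and 509 FPKM. The TLR4-K730R controls had 182, 184 and 195 FPKM, and its LPS libraries 519.5, 175 and 208 FPKM. Thus 7 of the 9 LPS libraries were at 459.5 FPKM or more, and TLR4-K730R LPS replicates 2 and 3 lay just below and just above the controls of that genotype. The means were 3.17-fold higher with LPS in TLR4-WT, 1.61-fold in TLR4-K730R and 3.44-fold in TLR4-K810R. The log2 difference was 1.65 in TLR4-WT (SE 0.27, adjusted p = 0.000116), 1.77 in TLR4-K810R (adjusted p = 7.1e-05) and 0.51 in TLR4-K730R (95% interval -0.07 to 1.09, adjusted p = 0.132), all by limma. Without TLR4-K730R LPS replicate 1 the last value was 0.03 (adjusted p = 0.876).

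Fcer1g, the γ chain that the activating receptors need at the surface, was the most abundant of the 6 transcripts in every library. TLR4-WT had 625.5, 671.5 and 628 FPKM in controls and 1148, 1117 and 1055 FPKM with LPS. TLR4-K730R had 490.1, 531 and 563 FPKM and, with LPS, 1068, 1063 and 1085 FPKM. TLR4-K810R had 564.5, 589 and 466 FPKM and, with LPS, 934, 965 and 1027 FPKM. The LPS libraries lay above all controls and close to each other within a genotype. The increase in means was 1.72-fold, 2.03-fold and 1.81-fold, and the log2 difference was 0.79, 1.02 and 0.86 (SE 0.10) with adjusted p of 9.68e-06, 5.01e-07 and 4.45e-06 by limma. Per unit of activating receptor mRNA (Fcgr1, Fcgr3 and Fcgr4 summed), Fcer1g was 1.78 ± 0.11 in TLR4-WT controls and 1.77 ± 0.42 with LPS (SD, n = 3). The same ratio was 1.58 ± 0.33 without and 2.60 ± 1.01 with LPS for TLR4-K730R, then 1.73 ± 0.39 without and 2.39 ± 0.50 with LPS for TLR4-K810R. Control and LPS libraries overlapped in every genotype, and the ratio was not tested.

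Fcgrt, which encodes the FcRn heavy chain, was the lowest of the 6. Its level was 13.6, 10.9 and 13.9 FPKM in TLR4-WT controls and 4.64, 5.38 and 4.83 FPKM with LPS. In TLR4-K730R it was 14.1, 13.25 and 11.4 FPKM and, with LPS, 3.04, 4.34 and 5.15 FPKM. In TLR4-K810R it was 10.6, 12.35 and 12.8 FPKM and, with LPS, 3.48, 2.775 and 2.76 FPKM. All LPS libraries were below all controls, by 2.58-fold, 3.09-fold and 3.96-fold in the means. The log2 difference was -1.21, -1.44 and -1.69 (SE 0.15) with adjusted p of 8.97e-06, 1.24e-06 and 2.61e-07 by limma. The partner chain B2m, β2-microglobulin, rose in the same cells, with log2 differences of 0.78, 0.96 and 0.92.

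The balance of activating against inhibitory receptors was described without a test. In controls Fcgr3 alone made up 54.7%, 55.5% and 52.1% of the summed FPKM of the 4 Fcγ receptors in TLR4-WT, TLR4-K730R and TLR4-K810R. With LPS its share was 13.0%, 16.1% and 11.1%. The share of Fcgr1 went from 9.52%, 5.91% and 9.49% to 26.8%, 31.6% and 24.0%. By group mean the largest activating share was thus that of Fcgr3 in control cells and that of Fcgr1 in LPS-treated cells, in each genotype. The inhibitory Fcgr2b held 31.6%, 35.6% and 32.9% of the sum in controls and 45.4%, 38.8% and 56.0% with LPS.

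Expressed as the activating sum divided by Fcgr2b, TLR4-WT controls had ratios of 2.02, 2.33 and 2.15 and LPS libraries 1.17, 1.68 and 0.895. TLR4-K810R controls had 2.65, 1.83 and 1.78 and LPS libraries 0.734, 0.964 and 0.681. In both genotypes the LPS libraries lay below all controls. TLR4-K730R controls had 2.08, 1.91 and 1.49, and its LPS libraries 0.707, 1.78 and 3.58, which spanned the range on both sides of the controls. The means were 2.17 ± 0.15 and 1.25 ± 0.40 in TLR4-WT, 2.09 ± 0.49 and 0.793 ± 0.15 in TLR4-K810R (SD, n = 3). For TLR4-K730R they were 1.83 ± 0.30 and 2.02 ± 1.45 (SD, n = 3). The highest ratio of all, in TLR4-K730R LPS replicate 3, came with high Fcgr1 and Fcgr4 and low Fcgr2b, and the low ratio in replicate 1 with high Fcgr2b. The mean sum of the 4 receptors was higher with LPS in every genotype, going from 527 to 1178 FPKM in TLR4-WT, from 527 to 774 FPKM in TLR4-K730R and from 477 to 945 FPKM in TLR4-K810R.

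**Figure D3:**
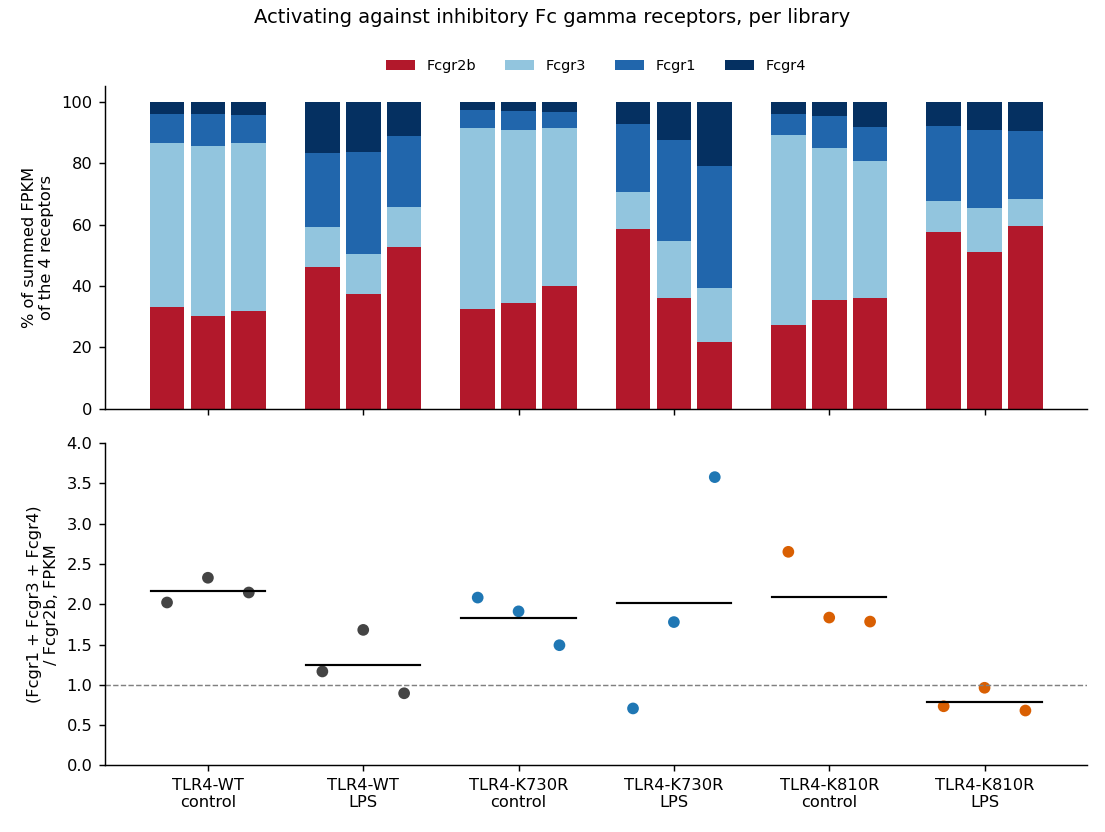
Top, share of Fcgr2b, Fcgr3, Fcgr1 and Fcgr4 in the summed FPKM of these 4 receptors, one bar per library. Bottom, the activating sum (Fcgr1, Fcgr3, Fcgr4) divided by Fcgr2b, one point per library with group means as black lines and a dashed line at 1. The Fcgr3 share is smaller in every LPS library than in any control, and the ratio runs from 0.707 to 3.58 within the TLR4-K730R LPS group.

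The deposited events also separated the forms of Fcgr2b. Transcripts that skip the cassette exon printed above, the b2 form, made up 92.3% to 95.4% of the Fcgr2b signal at this exon in the 9 control libraries. With the exon included the level was 7.33 to 11.1 FPKM in controls. In TLR4-WT cells with LPS it was 44.6, 50.3 and 33.2 FPKM, or 7.44%, 11.1% and 6.37% of the signal. In TLR4-K730R cells with LPS it was 35.8, 36.8 and 39.2 FPKM, or 6.96%, 21.5% and 19.2%. The 3 TLR4-K730R libraries thus carried like amounts of the exon-included form, and their difference lay in the exon-skipped form, at 479 FPKM in replicate 1 against 134 and 165 FPKM in replicates 2 and 3. In TLR4-K810R the LPS libraries had 106.5, 31.2 and 29.3 FPKM of the included form, or 18.3%, 6.36% and 5.81%, with 474, 459.5 and 475 FPKM of the skipped form. Here replicate 1 stood out by the included form. It was also the only library with a listed form that skips the 21-base Fcgr2b exon at chr1:170969474-170969494, at 80.48 FPKM. Whether both belong to the same transcripts was not tested. The exon-included form was higher in all 9 LPS libraries than in all 9 controls. These are estimates for forms that share most of their sequence, their precision is not given in the files, and no test was made.

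**Figure D4:**
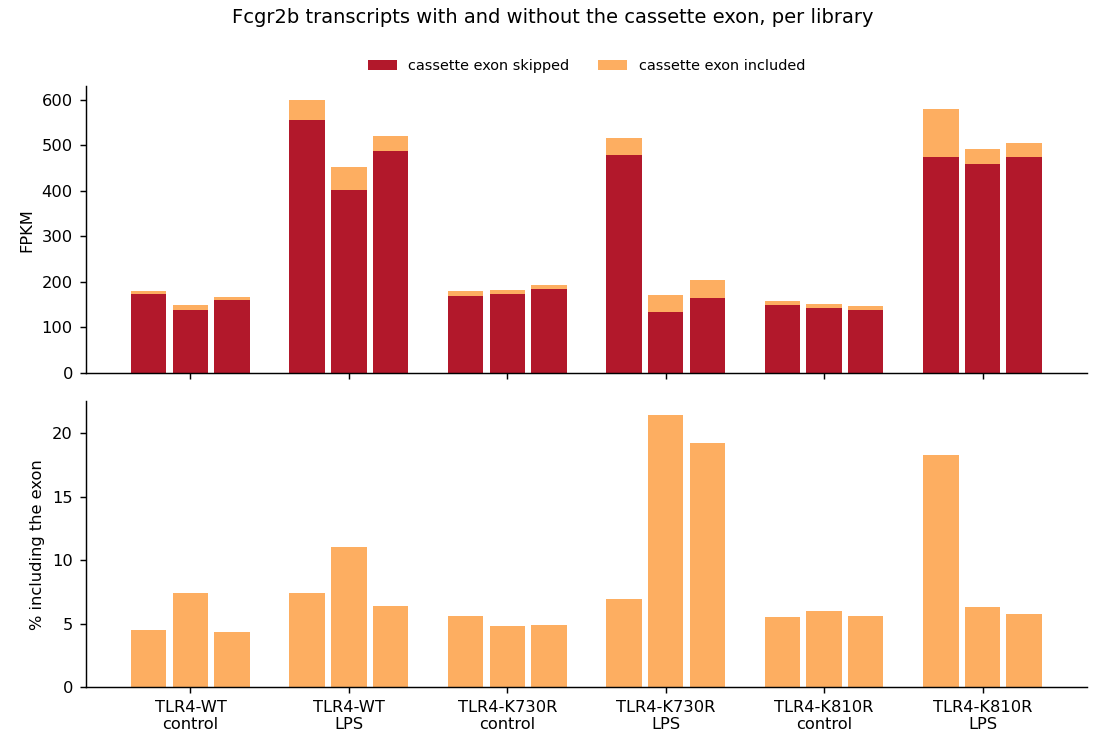
Top, FPKM of Fcgr2b transcripts that skip (red) or include (orange) the cassette exon in each library; bottom, the percentage that includes it. The included form is 29.3 to 106.5 FPKM in LPS libraries and 7.33 to 11.1 FPKM in controls, while the skipped form is low in TLR4-K730R LPS replicates 2 and 3.

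Other members had alternative exons with smaller or uneven use. A longer form of a Fcer1g exon took 0.94% to 2.62% of its signal, and a truncated Fcgr1 exon 0.44% to 6.0%, over the 18 libraries. An Fcgrt exon that is longer by 12 bases at one end ranged from 0 to 79.6% of the signal and differed between replicates of one group by as much as 2.4% to 79.6%, so no group value is given.

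The second set of comparisons asked whether the TLR4 mutations changed receptor levels. In control cells 0 of 6 genes passed in TLR4-K730R against TLR4-WT, where 0.268% of all genes did, and 0 of 6 in TLR4-K810R against TLR4-WT, where 1.58% did. With an unadjusted p below 0.05 there were 2 and 1 of the 6, beside 7.7% and 14.1% of all genes. Libraries did not overlap for Fcgr1, Fcgr4 and Fcer1g in TLR4-K730R controls, all lower than TLR4-WT, where 16.4% of all genes did not overlap. The log2 differences were -0.67 for Fcgr1 (95% interval -1.21 to -0.13, adjusted p = 0.527), -0.49 for Fcgr4 (-1.24 to 0.26, adjusted p = 0.846) and -0.28 for Fcer1g (-0.50 to -0.07, adjusted p = 0.459) by limma. In TLR4-K810R controls, Fcgr1 and Fcer1g lay below all TLR4-WT controls, where 20.8% of all genes did not overlap. Fcer1g differed by -0.26 (-0.47 to -0.04, adjusted p = 0.237) and Fcgr1 by -0.19 (-0.73 to 0.35, adjusted p = 0.813).

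With LPS, 0 of 6 genes passed in TLR4-K730R against TLR4-WT. By limma 0 of all 9707 genes, or 0%, passed there, with 746 at an unadjusted p below 0.05, or 7.69%, 2 of them among the 6 receptors, and 1 gene passed with library weights. None of the 6 receptors was free of overlap in this comparison, where 10.9% of all genes were. Fcgr2b differed by -0.98 (95% interval -1.56 to -0.40, adjusted p = 0.539) and Fcgr4 by -0.89 (-1.63 to -0.14, adjusted p = 0.62). With 1 library left out at a time, the Fcgr4 difference ran from -1.45 to -0.58. The value of -1.45 (adjusted p = 0.0424 by limma) was that without replicate 3 of TLR4-K730R LPS. For Fcgr2b the group mean was 301 FPKM in TLR4-K730R against 529 FPKM in TLR4-WT, with replicate 1 among the TLR4-WT values and replicates 2 and 3 below all of them. Without replicate 1 the Fcgr2b difference was -1.46 and passed (adjusted p = 0.000206), so this 1 library decided the call. Without replicate 2 the Fcgr2b difference was -0.68 (adjusted p = 0.906 by limma).

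In TLR4-K810R cells with LPS, 0 of 6 genes passed against TLR4-WT, where 0.134% of all genes did, and Fcgr3, Fcgr4 and Fcgrt, 3 of the 6, had an unadjusted p below 0.05, as did 21.8% of all genes. Fcgr3 differed by -0.56 (-1.11 to -0.02, adjusted p = 0.218) and overlapped. Fcgr4, Fcer1g and Fcgrt lay below all TLR4-WT LPS libraries, where 25.3% of all genes did not overlap. Fcgrt was 3.004 FPKM on average against 4.95 FPKM, a log2 difference of -0.57 (-0.90 to -0.25, adjusted p = 0.0567). Fcgr4 was 84.1 FPKM against 178 FPKM, a difference of -1.01 (-1.76 to -0.26, adjusted p = 0.12), or -1.31 (adjusted p = 0.0347) without replicate 3 of TLR4-WT LPS. Over all fits with 1 library left out, the Fcgr4 difference ran from -1.31 to -0.83. Fcgr2b differed by 0.00 (-0.57 to 0.58). The median of all genes in this comparison was 0.11 and that of the 6 receptors -0.51.

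The LPS response itself was then compared between genotypes. None of the 6 responses differed by limma, in TLR4-K730R beside 0.0412% of all genes and in TLR4-K810R beside 0.124%. At an unadjusted p below 0.05 there were 1 and 2 of the 6, beside 7.02% and 13.2% of all genes. The response of Fcgr2b in TLR4-K730R was lower than in TLR4-WT by a log2 difference of -1.14 (-1.96 to -0.33, adjusted p = 0.532), and by -1.62 (adjusted p = 0.00111) without LPS replicate 1 of TLR4-K730R. Without LPS replicate 2 of TLR4-K730R this difference was -0.84 (adjusted p = 0.719 by limma). In TLR4-K810R the response differed by -1.19 for Fcgr4 (-2.25 to -0.13, adjusted p = 0.316) and by -0.48 for Fcgrt (-0.94 to -0.02, adjusted p = 0.355). These comparisons share the TLR4-WT libraries and are not independent of each other.

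**Figure D5:**
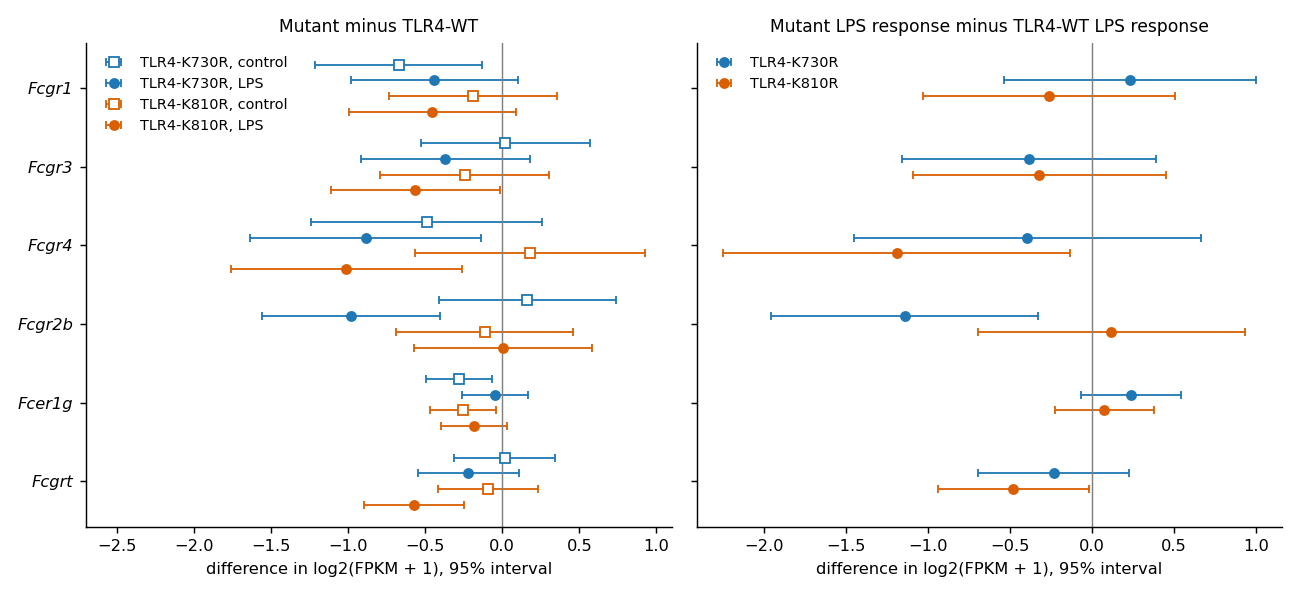
Left, difference in log2(FPKM + 1) of each mutant from TLR4-WT in control (open squares) and LPS (filled circles) libraries; right, difference of the LPS response of each mutant from that of TLR4-WT, both with 95% intervals from limma. No difference passed an adjusted p of 0.01, and the intervals farthest from 0 are those of Fcgr4 in TLR4-K810R and Fcgr2b in TLR4-K730R.

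The pathway around the receptors moved in both directions with LPS. The counts of its gene lists stand beside calls in 10.4%, 9.32% and 9.08% of all genes higher and in 23.9%, 26.5% and 19.7% lower, in TLR4-WT, TLR4-K730R and TLR4-K810R. Of 27 genes of activating Fc receptor signalling, 26 were tested, and 6 rose and 5 fell in TLR4-WT, 6 rose and 5 fell in TLR4-K730R, and 6 rose and 4 fell in TLR4-K810R, with medians of -0.06, -0.10 and 0.00. In TLR4-WT that is 23.1% higher and 19.2% lower, the latter near the share of all genes. In TLR4-WT the adaptor Lcp2 (SLP-76) rose by a log2 difference of 2.01, the kinase Lyn by 1.31 and the paracaspase Malt1 by 2.82. Syk, the kinase that binds the ITAM of Fcer1g, had 71.4 FPKM in controls and 116 FPKM with LPS, a difference of 0.70 (adjusted p = 0.000244 by limma). Card9, the adaptor upstream of Malt1, fell by 1.03. Under median-of-ratios scaling the counts were 9 higher and 4 lower in TLR4-WT, 6 higher and 3 lower for TLR4-K730R, and 8 higher and 2 lower for TLR4-K810R. Of all genes 14.8%, 14.3% and 11.7% were called higher and 14.9%, 15.1% and 12.7% lower under that scaling.

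All 11 genes of inhibitory Fc receptor signalling were tested, and 0 rose with LPS in any genotype, while 3, 4 and 3 fell in TLR4-WT, TLR4-K730R and TLR4-K810R, with medians of -0.32, -0.31 and -0.20. The falls in TLR4-WT, 27.3% of the list, were near the 23.9% of all genes called lower. Inpp5d, the phosphatase SHIP1 that FcγRIIb recruits, had 43.3 FPKM in TLR4-WT controls and 31.3 FPKM with LPS, a log2 difference of -0.46 (adjusted p = 0.00475 by limma). In TLR4-K730R it was -0.68 and in TLR4-K810R -0.61, both called. Under median-of-ratios scaling the Inpp5d calls did not hold in any genotype and the falls were 1, 1 and 2, with 1 rise in TLR4-K810R, that of Dok2, named after its values were seen. The phosphatase gene Ptpn22 fell by 2.27 in TLR4-WT, and Ptpn6 (SHP-1) differed by 0.17 (adjusted p = 0.502). Cblb, a ubiquitin ligase gene, was the 1 gene of these lists called between genotypes, higher by 1.02 in TLR4-K810R controls than in TLR4-WT controls (adjusted p = 0.0031 by limma), where 1.58% of all genes were called.

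Other partners of Fcer1g and other receptors were mixed. Of 6 listed genes that are a second ITAM adaptor or receptors that use Fcer1g, 4 were tested, and 2 rose and 1 fell in each genotype. In TLR4-WT the C-type lectin Clec4e (Mincle), which signals through Fcer1g, rose by 4.02 and Clec4d by 0.82. Tyrobp (DAP12), the other ITAM adaptor of myeloid cells, fell from 2023 to 879 FPKM in TLR4-WT (adjusted p = 2.32e-07 by limma), while Fcer1g rose. Among 12 other ITIM receptors of myeloid cells, 10 were tested, and 3 rose and 3 fell in each genotype, against 10.4% of all genes higher and 23.9% lower in TLR4-WT. In TLR4-WT, Siglece rose by 3.38, Pilra by 2.37 and Milr1 by 2.06, and Cd300a fell by 2.97 and Lair1 by 2.84. Under median-of-ratios scaling the falls were 3, 2 and 1.

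Of 13 other immunoglobulin receptors, 5 were tested, and 2 rose in each genotype, with 1 fall, of Fcrl1, in TLR4-K730R. Under median-of-ratios scaling 4 of the 5 were tested, Fcrl1 not among them. Trim21, a cytosolic antibody receptor, went from 4.58 to 21.3 FPKM in TLR4-WT and Fcrlb, a relative encoded beside the Fcγ receptors, from 0.566 to 7.88 FPKM. Fcer1a, the IgE-binding chain of mast cells, had no value in any of the 18 libraries. Of 5 phagocyte NADPH oxidase genes 4 were tested, and TLR4-WT cells had 0 rises and 1 fall, TLR4-K730R cells 2 rises and 1 fall, and TLR4-K810R cells 1 rise and 1 fall. A single fall among 4 genes is near the 23.9% of all genes called lower in TLR4-WT. Ncf1, a cytosolic subunit, fell by 1.28 in TLR4-WT. In TLR4-K810R the counts under median-of-ratios scaling were 3 higher and 0 lower, beside 11.7% and 12.7% of all genes. Of the C5a receptors, C5ar1 and C5ar2 were not tested for want of values in enough libraries.

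By the likeness of profiles over the 18 libraries, measured as the root mean square difference between centred log2(FPKM + 1) values, Fcgr1 was closest to Slamf9 (0.205), Nmi (0.243) and Pdpn (0.258). Fcgr4 was closest to Glipr2 (0.216), Serpina3f (0.321) and Fcgr1 (0.322). Fcgr3 was closest to Pdgfb (0.242), Wnk1 (0.247) and B4galt6 (0.262). For Fcer1g these were Pik3ap1 (0.105), Zc3hav1 (0.111) and Trim14 (0.121), and for Fcgrt Stra6l (0.182), Nck2 (0.204) and Rab11fip5 (0.204). Fcgr2b had the most distant neighbours, Spred1 (0.375), Gm34643 (0.398) and Xylt2 (0.403).

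Several receptors are shared with other leukocytes, whose markers also moved with LPS. Summed FPKM of 8 B cell markers, cells that carry Fcgr2b, was 7.41 to 24.5 in controls and 4.01 to 7.37 with LPS, mostly Cd22, with no value for Ighm and Pax5. Summed FPKM of 8 neutrophil markers, cells that carry Fcgr3 and Fcgr4, was 78.3 to 102 in controls and 285 to 380 with LPS, nearly all from S100a8, Csf3r and Mmp9. Ly6g was at most 0.644 FPKM, S100a9 at most 2.23 FPKM and Ngp at most 0.121 FPKM. The 8 mast cell markers summed to 0.494 to 5.25 FPKM in controls and 6.59 to 24.7 FPKM with LPS, most of the latter Hdc, with no value for Fcer1a and Ms4a2. The macrophage sum was 11590 to 14740 FPKM in controls and 6877 to 9811 FPKM with LPS, led by Lyz2. Of these lists 6 of 8, 8 of 8 and 6 of 8 genes had a value for B cells, neutrophils and mast cells. NK cell and T cell sums stayed below 1 FPKM in all libraries, with a value for 1 of 6 and 6 of 6 genes. Eosinophil sums reached 2.79 FPKM (3 of 6 genes with a value) and endothelial sums 3.58 FPKM (4 of 6). Dendritic cell sums (4 of 6) were 0.0888 to 1.96 FPKM in controls and 3.03 to 5.76 FPKM with LPS. Mesothelial sums (6 of 6) were 3.07 to 4.53, 4.04 to 8.69 and 13.4 to 35.2 FPKM in TLR4-WT, TLR4-K730R and TLR4-K810R controls. With LPS they were 1.94 to 9.99 FPKM. Genes without a value counted as 0. The part of other cells in the receptor values was not tested.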

How the data were processed

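RNA-seq was available for peritoneal macrophages of 3 genotypes with and without LPS, 3 libraries in each of 6 groups, named by the sample labels. The authors deposited FPKM values per transcript event, 80071 to 90401 rows per library of 20 event kinds. An event can be missing from a library, which is not a measured zero, and a missing event counted as 0 in sums and fits. The aligner and the counting program are not given in the sources used here. The submitters' processing notes name the human build hg18, whereas the gene numbers are mouse and the coordinates match GRCm38 (14126 of 14138 numbers found in GENCODE M21). Rows lying off the annotated gene or its strand were left out, which removed 5.99% of first-exon and last-exon FPKM. The value of a gene is the larger of both sums.

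The 9707 genes reaching 1 FPKM in 3 or more libraries entered limma (3.58.1, under R 4.3.3) on log2(FPKM + 1), so that folds of low genes are understated, with 6 groups in one fit, an intensity trend, Benjamini-Hochberg adjustment over all genes and a threshold of 0.01. Confidence intervals are at 95%. The method was tested on simulated data. Alternatives covered pseudocount, filters, scaling, trend, weights, replicate block, choice of events, groups in the fit and left-out libraries. The 6 genes, the gene and marker lists, the tests and the rule for named genes (for each list the up to 5 called genes with the smallest adjusted p plus B2m, Syk, Inpp5d, Ptpn6, Tyrobp, Fcer1a, C5ar1 and C5ar2, and the 3 genes most like each receptor) were chosen with earlier results of these data known. A few genes of these lists are not reported here by name. Sequences are from RefSeq and GENCODE transcripts.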

Additional observations from a re-analysis of the deposited data

How the results depend on the processing

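Of 1026 single receptor differences under the alternatives, 991 kept their direction and their side of the threshold, 14 lost a call, 3 gained one, and 18, none of them called in either fit, changed sign. With first-exon events only, 3 of 4 tested receptors passed in TLR4-WT with LPS against control, 4 of 4 for TLR4-K730R and 3 of 4 for TLR4-K810R. Fcgr3 and Fcer1g had no tested value there, and the first exon of Fcgr2b was listed in 8 of 9 LPS libraries but 1 of 9 controls, so its first-exon values, missing events counted as 0, bear on no comparison. Leaving out 1 library at a time, 0 to 1 receptors passed in TLR4-K730R against TLR4-WT with LPS and 0 to 1 in the difference between these LPS responses, the 1 being Fcgr2b without TLR4-K730R LPS replicate 1. The Fcgr3 fall in TLR4-WT had adjusted p between 0.0013 and 0.0867 over its 17 alternatives, 0.015 without a filter and 0.0101 without the trend, and in TLR4-K810R it was 0.0183 in a fit of the groups compared only.

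Of the differences that changed sign, Fcgr2b in TLR4-K810R against TLR4-WT with LPS was -0.14 with median-of-ratios scaling, -0.0783 with library weights and -3.24 by first exons, and ran from -0.0942 to 0.10 without single libraries. By first exons Fcgr2b was also -2.32 in TLR4-K730R against TLR4-WT controls, and 1.06 and -0.92 in the response differences of TLR4-K730R and TLR4-K810R. Against TLR4-WT controls, TLR4-K730R Fcgrt was -0.0199 with library weights. Without single libraries Fcgrt ran from -0.0868 to 0.0949 and Fcgr3 from -0.0711 to 0.13 in TLR4-K730R controls against TLR4-WT, Fcgr4 from -0.0256 to 0.36 in TLR4-K810R controls, and the response differences of Fcgr1 in TLR4-K730R from -0.13 to 0.49 and of Fcer1g in TLR4-K810R from -0.0288 to 0.14.

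The labels do not say whether same-numbered libraries were paired. Their deviations correlated between -0.0522 and 0.0924 for control and LPS of one genotype, and between -0.32 and 0.0261 across genotypes. With 3 libraries per group and genes that are not independent, these values cannot exclude pairing. With the replicate block, 5 receptors passed in TLR4-WT (Fcgr3 not), 5 in TLR4-K730R and 6 in TLR4-K810R with LPS against control, and 0 in the other comparisons.

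Counts over all genes moved more. The 13 calls of TLR4-K810R against TLR4-WT with LPS became 366 with library weights, 1 without TLR4-WT LPS replicate 1, 284 without replicate 3 of that group, 8 with no filter, 8 with first exons, 3 with the block and 0 with only the groups compared. The 153 calls in controls became 33 with only the groups compared and 50 to 123 without single libraries. For TLR4-K730R in controls, 26 became 61 with weights and 11 with the block, with 11 to 16 without single libraries, and with LPS 0 became 1 with weights and at most 2 without single libraries. For the LPS responses, 12 in TLR4-K810R became 37 with weights and 6 with the block, with 6 to 13 without single libraries, and 4 in TLR4-K730R became 2 with last exons or only the groups compared. Depth is unknown, so how it limits low values such as Fcgrt could not be assessed.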
